A study of Sus scrofa domesticus with 4 samples.

Results

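TSHB and TRHR, the thyrotropin beta subunit and the receptor for thyrotropin-releasing hormone (TRH), were followed in the anterior pituitary of 8 gilts, which are young female pigs. The members were chosen by gene symbol: every array probe whose RefSeq accession belongs to either gene was taken. Each gene has 1 probe, so they make 2 of the 2459 genes, and 2 of the 5578 probes, that have a name here, on an array of 43603 probes in all. The TSHB probe is A_72_P146666 (NM_214368, gene 397658) and the TRHR probe is A_72_P186401 (NM_001177488, gene 100415777).

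The animals were mature gilts, crosses of Large White and Polish Landrace, weighing about 110 kg. The 4 pregnant gilts had been bred naturally and were killed on days 12 to 13, when conceptuses were found. The 4 cyclic gilts were killed on days 12 to 13 of the estrous cycle. Each of 4 two-colour arrays held RNA from 1 pregnant and 1 cyclic gilt, and the sample labels give the pregnant gilts Cy3 on arrays 1 and 3 and Cy5 on the other two.

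Thyrotropin is the pituitary hormone that drives the thyroid gland. It is a dimer of an alpha subunit, encoded by CGA and shared with the gonadotropins, and a beta subunit, encoded by TSHB, that gives it its identity. TRH from the hypothalamus acts on a Gq-coupled receptor, encoded by TRHR, to raise thyrotropin synthesis and release, and thyroid hormone represses both subunit genes. Thyrotrophs are a minor cell type of the gland, and TRHR is also found on lactotrophs.

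Of the spots, 47.5% to 67.9% were well above background in Cy3 and 60.7% to 71.8% in Cy5, and none was saturated. The SD of the log2 ratios over the tested probes was 0.28 to 0.33 on arrays 1, 2 and 4 and 0.58 on array 3. Of 9 listed markers of the anterior pituitary 8 were measured (PRL, GH1, POMC, LHB, FSHB, CGA, POU1F1 and TSHB). PITX1 had no named probe, and FSHB had no value on array 1. Of the 6 thyrotroph markers TSHB, CGA, TRHR and POU1F1 passed the filter on dim probes, and DIO2 and GATA2 did not. On array 4, 6956 spots (15.9% of the array) lay in an area that was dim by the average of both channels. The median shift there was -3.23 log2 units against the other arrays, and the TRHR spot lay in that area. The TSHB spot did not.

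TSHB differed widely between gilts and, by the sample labels, did not separate the 2 states. Its level was far above all others in 1 pregnant gilt, second highest in 1 cyclic gilt, and lowest in another pregnant gilt. TRHR was dim and varied mostly from array to array. It was slightly higher in the pregnant gilt on 2 of the 3 arrays where both readings were well above background. On all 3 it was brighter in Cy3 than in Cy5 after normalisation. Neither gene was called by limma after Benjamini-Hochberg adjustment at 0.05, nor was any other of the 21627 tested probes (0%), of which 3904 (18.1%) had an unadjusted p under 0.05. A separate-channel model called 1046 probes and the fit without array 1 called 3381, with TSHB and TRHR in neither set. In the separate-channel model the estimate of the correlation between channels stopped at its limit of iterations at least once.

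The scanner's own readings of TSHB are given first, before normalisation, when Cy3 and Cy5 signals are not on 1 scale. The pregnant gilts were in Cy3 on arrays 1 and 3 and in Cy5 on arrays 2 and 4. The gap between the gilts of an array is therefore read from the normalised ratios below. These gave 1.11-fold on array 1 and 2.57-fold on array 4. The median spot signal of TSHB in the pregnant gilts was 382.5, 564, 73646.5 and 1079 on arrays 1 to 4. In the cyclic gilts it was 1160.5, 6255, 1279.5 and 1185. Local background was 29 to 36 in every channel. All 8 readings were well above background, none was saturated and none carried an outlier flag. The pregnant gilt of array 3 had by far the brightest spot, the cyclic gilt of array 2 the next, and the other 6 readings lay between 382.5 and 1279.5.

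After normalisation the log2 level of TSHB in the pregnant gilts was 9.18, 8.29, 16.19 and 10.13 on arrays 1 to 4. The level in the cyclic gilts was 9.34, 13.14, 9.88 and 11.49. In order from the highest, the levels belonged to the pregnant gilt of array 3, the cyclic gilts of arrays 2 and 4, the pregnant gilt of array 4, the cyclic gilts of arrays 3 and 1, and the pregnant gilts of arrays 1 and 2. The groups overlapped: the pregnant gilts held both ends of the order. The mean level was 10.95 ± 3.57 in pregnant gilts and 10.96 ± 1.72 in cyclic gilts (SD, n = 4 each). In a whole gland, more cells of a type and more RNA per cell cannot be told apart.

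**Figure D1:**
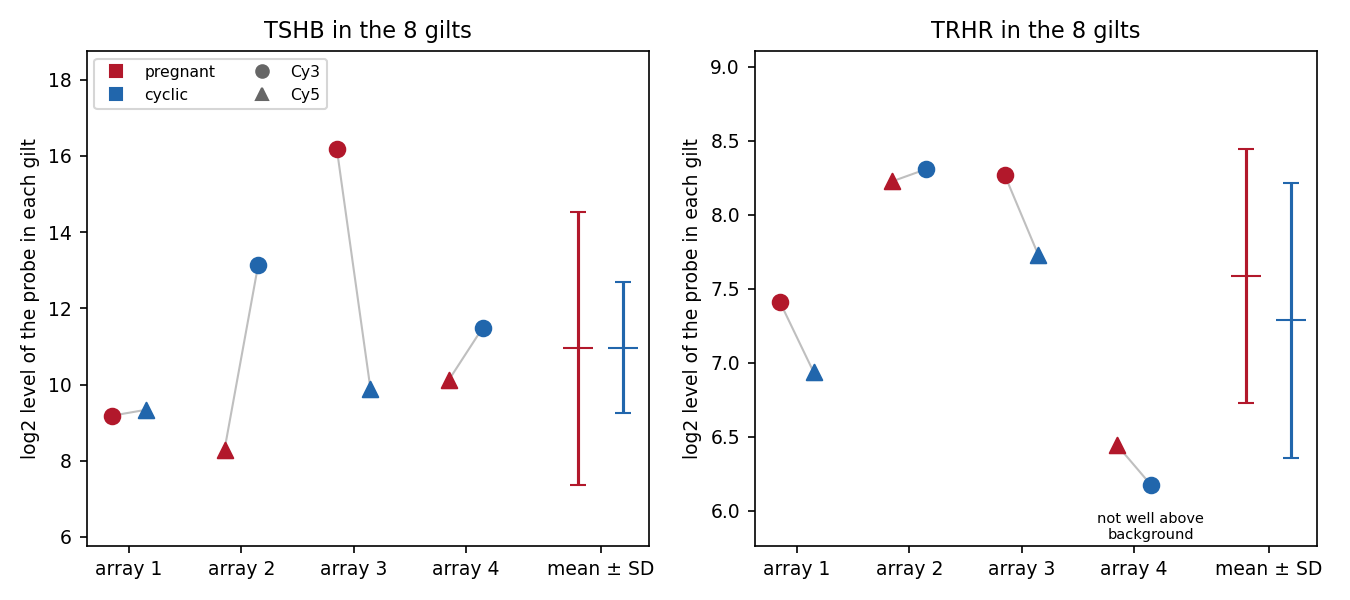
Log2 level of TSHB (left) and TRHR (right) in each gilt; the y axes differ. Each grey line joins the pregnant (red) and cyclic (blue) gilt of 1 array, circles are Cy3 and triangles Cy5, and bars are the mean ± SD of 4 gilts. TSHB reaches 16.19 in the pregnant gilt of array 3, and both TRHR points of array 4 lie below those of the other arrays.

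The highest and lowest TSHB levels were 7.90 log2 units apart, a 238-fold range. Of the 19880 probes with a ratio on all 4 arrays, 41 had a wider range over the 8 gilts, and all 41 had a spot in the dim area of array 4. The median range of all these probes was 0.80 log2 units. Among these probes, none with its array 4 spot outside that area varied more between the gilts than TSHB.

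The log2 ratio of pregnant over cyclic for TSHB was -0.15, -4.85, 6.30 and -1.36 on arrays 1 to 4. TSHB was thus 79.0-fold higher in the pregnant gilt of array 3, and 1.11-fold, 28.8-fold and 2.57-fold lower in the pregnant gilts of arrays 1, 2 and 4. The ratio was negative on 3 arrays and positive on 1. On arrays 2 and 3 it was the largest ratio of either sign of any tested probe (of 21251 and 21439). On array 4, 0.402% of the tested probes had a ratio at least as large, and on array 1 56.4% did. By the sample labels, the state with more TSHB therefore changed from pair to pair.

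**Figure D2:**
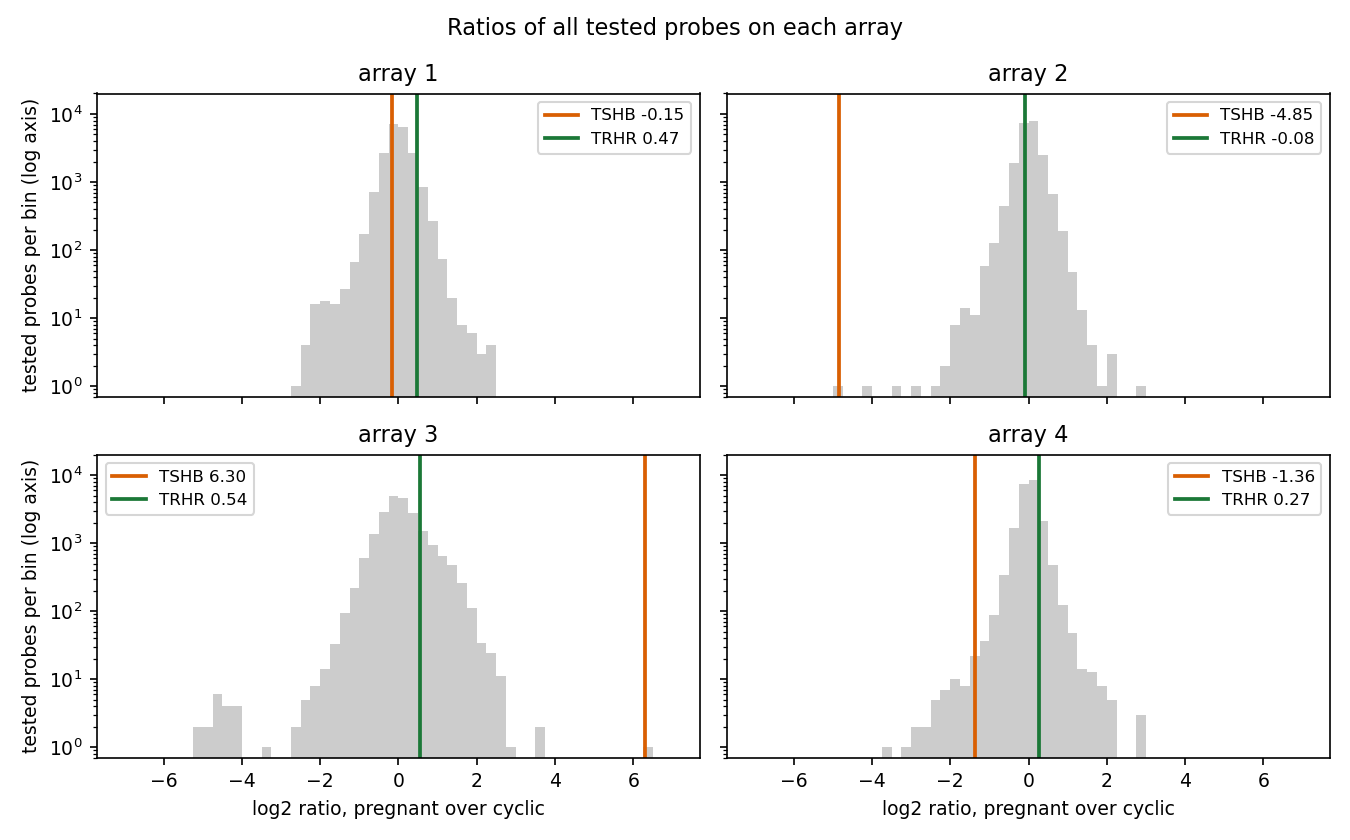
Number of tested probes (log axis) by log2 ratio of pregnant over cyclic on each array, with the ratios of TSHB (orange) and TRHR (green) as vertical lines. TSHB stands at -4.85 on array 2 and 6.30 on array 3, outside all other probes, and TRHR lies within the bulk on every array.

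The fitted log2 ratio of TSHB over the 4 arrays was -0.015 with an SE of 1.18 and a 95% interval of -3.09 to 3.06 (limma, Benjamini-Hochberg adjusted p = 0.996). The exact two-sided sign-flip permutation test over the 4 arrays gave p = 1, and the smallest p it can give with 4 arrays is 0.125. The interval spans several-fold differences in both directions, so the arrays neither show a difference nor bound it closely. The SD of the 4 ratios, 4.66, was the largest of all 21627 tested probes, against a median of 0.22. The next largest belonged to an unnamed transcript (TC423681) with 3.67. Without array 3 the fitted ratio of TSHB was -1.63 and without array 1 it was 1.60, neither with an adjusted p under 0.05.

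Dye and state alternate over the arrays. After normalisation TSHB was brighter in Cy3 than in Cy5 on 3 of 4 arrays. The mean of Cy3 over Cy5 on the 4 arrays was 3.09 ± 2.996 log2 units (SD, n = 4). The 3 highest TSHB levels were all in Cy3, while the pregnant gilt of array 1, also in Cy3, was second lowest. The labelling protocol can be read as pregnant RNA in Cy3 throughout, against the sample labels. Under that reading TSHB was higher in the pregnant gilt on 3 of 4 arrays, with a ratio of 3.09 (limma, Benjamini-Hochberg adjusted p = 0.848). The deposited value table has its signs turned by the sample labels. Whether dye contributed to the TSHB differences was not tested.

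The spots around TSHB did not show its ratios. Among 44 spots within 4 rows and 2 columns, ratios ran from -0.68 to 0.73 on array 2 and from -0.80 to 1.69 on array 3. The scanner's own dye-normalised signals gave TSHB log2 ratios of -0.26, -5.08, 6.24 and -1.56, in the same order as the ratios above.

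TRHR gave weak spots. Before normalisation, its median spot signal was 95, 493, 254 and 44.5 in the pregnant gilts of arrays 1 to 4. In the cyclic gilts it was 136, 196, 207 and 32.5, over a local background of 28 to 41. Of its 8 readings 7 were well above background, and the cyclic gilt of array 4, in the dim area, was not: its signal of 32.5 lay under its local background of 41. TRHR was thus tested through the pregnant gilts alone, where it was well above background on all 4 arrays. No TRHR reading was saturated or flagged as an outlier.

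The log2 level of TRHR in the pregnant gilts was 7.41, 8.23, 8.27 and 6.44 on arrays 1 to 4. In the cyclic gilts it was 6.93, 8.31, 7.73 and 6.18. The groups overlapped over almost their whole range, with means of 7.59 ± 0.86 in pregnant gilts and 7.29 ± 0.93 in cyclic gilts (SD, n = 4 each). From the highest, the order ran from the cyclic gilt of array 2 through the pregnant gilts of arrays 3 and 2, the cyclic gilt of array 3, and the pregnant and cyclic gilts of array 1 to the pregnant and cyclic gilts of array 4. Both gilts of an array lay near each other: the mean of the pair was 7.17, 8.27, 8.00 and 6.31 on arrays 1 to 4. Around the TRHR spot, 24 bright neighbours on array 4 had a median shift of -3.39 against the other arrays.

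The log2 ratio of pregnant over cyclic for TRHR was 0.47, -0.08, 0.54 and 0.27 on arrays 1 to 4. It was positive on arrays 1 and 3, and close to 0 and negative on array 2. On each of these arrays TRHR was brighter in Cy3 than in Cy5 after normalisation. Before it, the median signal was lower in Cy3 on array 1 (95 against 136) and array 2 (196 against 493). On array 3 it was higher in Cy3 (254 against 207). Whether dye contributed to the TRHR ratios was not tested. The positive value of array 4 was taken against the cyclic reading below background and gives no direction. The fitted ratio was 0.30, a 1.23-fold higher level in pregnant gilts, with an SE of 0.094 and a 95% interval of 0.055 to 0.55 (limma, Benjamini-Hochberg adjusted p = 0.245). The exact two-sided sign-flip permutation test gave p = 0.25. TRHR was among the probes with an unadjusted p under 0.05, at rank 2270 of 21627 by p. It entered the tests through the pregnant gilts alone, and the fit, its interval and this p include the array 4 ratio. The difference did not pass the threshold after adjustment. Without array 4, whose TRHR spot was dim, the ratio of TRHR was 0.21 (limma unadjusted p = 0.16, adjusted p = 0.628).

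The 2 genes varied on different scales. The TRHR range over the 8 gilts was 2.13 log2 units, a 4.38-fold range, which 4.98% of the 19880 probes reached. Its low end was the array 4 reading not above background. Without array 4, an alternative added after the values were seen, the TRHR range over 6 gilts was 1.37 log2 units, a 2.59-fold range, which 6.56% of these probes reached. The SD of its ratios was 0.28. In the pregnant gilt of array 3, where TSHB was highest, TRHR was also high (8.27). On array 2, TRHR was 8.23 in the pregnant gilt, which had the lowest TSHB level, and 8.31 in the cyclic gilt, which had the second highest. As a description over 8 gilts that share arrays in pairs, Pearson's r between the 2 levels was 0.32.

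CGA, the alpha subunit that pairs with TSHB, did not follow it. The log2 level of CGA was 16.48, 17.37, 16.48 and 17.57 in the pregnant gilts and 17.68, 17.26, 17.51 and 16.50 in the cyclic gilts of arrays 1 to 4. Its ratios were -1.19, 0.11, -1.04 and 1.06, so CGA was lower in the pregnant gilt of array 3 where TSHB was highest. The groups overlapped, and the fitted ratio was -0.27 ± 1.06 (SD, n = 4; limma adjusted p = 0.453). The CGA ratio was -0.026 without array 2 and -0.50 without array 4. The 4 CGA readings in Cy3 were all below the 4 in Cy5. CGA is also made by gonadotrophs, whose beta subunits gave mean ratios of -1.89 ± 1.52 for FSHB on the 3 arrays where its spot was not flagged and -0.20 ± 0.50 for LHB on 4 arrays (SD), with no call.

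**Figure D3:**
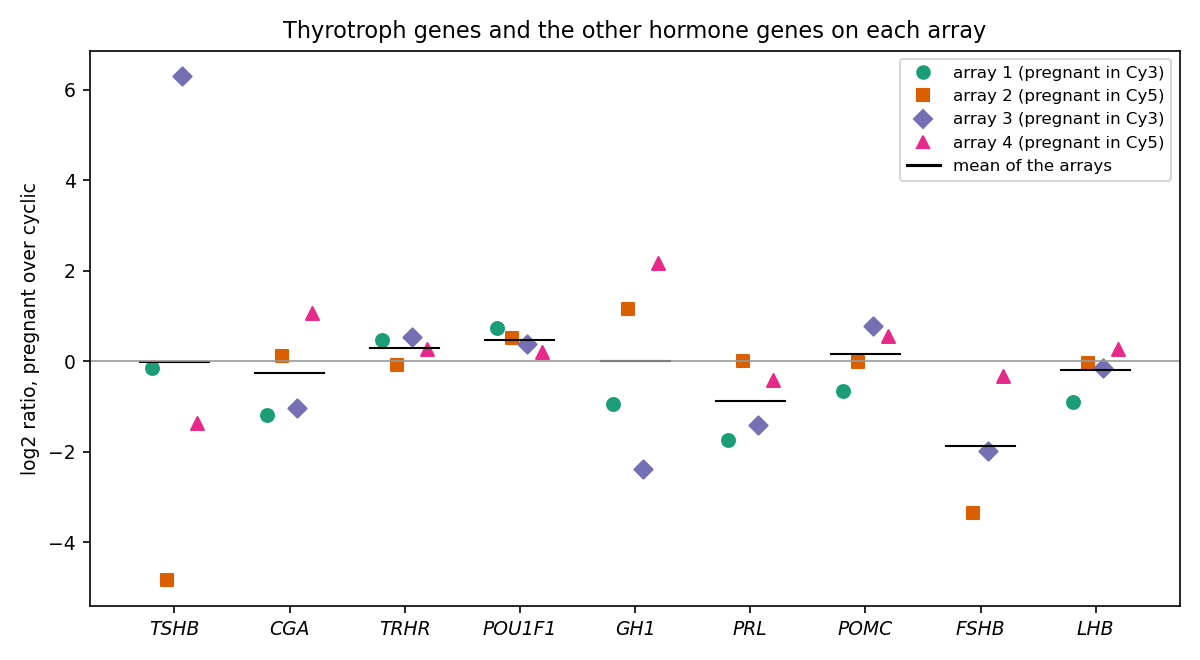
Log2 ratio of pregnant over cyclic on each array for the probes of pituitary hormone genes and TRHR. TSHB spreads from -4.85 to 6.30, GH1 from -2.39 to 2.16, and TRHR stays between -0.08 and 0.54, its array 4 value being against a reading not above background.

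Among the other hormones GH1, the growth hormone gene of somatotrophs, had the next widest ratios after TSHB on 4 arrays, mostly of opposite sign. Its log2 level was 17.11, 17.86, 15.88 and 18.15 in the pregnant gilts and 18.05, 16.72, 18.28 and 15.99 in the cyclic gilts. The pregnant gilt of array 3 had the lowest GH1 level and the highest TSHB level, and the 4 GH1 readings in Cy3 were all below the 4 in Cy5. Over the 8 gilts r between TSHB and GH1 was -0.76. PRL, the prolactin gene of the lactotrophs that also carry TRHR, had ratios of -1.75, 0.01, -1.42 and -0.41 with its brightest probe, and a fitted ratio of -0.89 ± 0.83 (SD, n = 4; limma adjusted p = 0.235). Its r with TSHB was -0.28. None of the 7 pituitary hormone genes, TSHB and CGA included, was called.

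POMC, the precursor of corticotropin, has 3 probes that followed TSHB to different degrees. Probe A_72_P668559 had ratios of -0.19, -1.23, 1.56 and -0.97, the same signs as TSHB, and an r with TSHB of 0.94 over 8 gilts. For probe A_72_P232287 r was 0.85. The brightest probe, A_72_P671668, had ratios of -0.67, -0.01, 0.78 and 0.55 and an r of 0.33. All 3 probes had a positive ratio on array 3 and they differed in sign on array 4, so a likeness of POMC to TSHB depends on the probe.

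**Figure D4:**
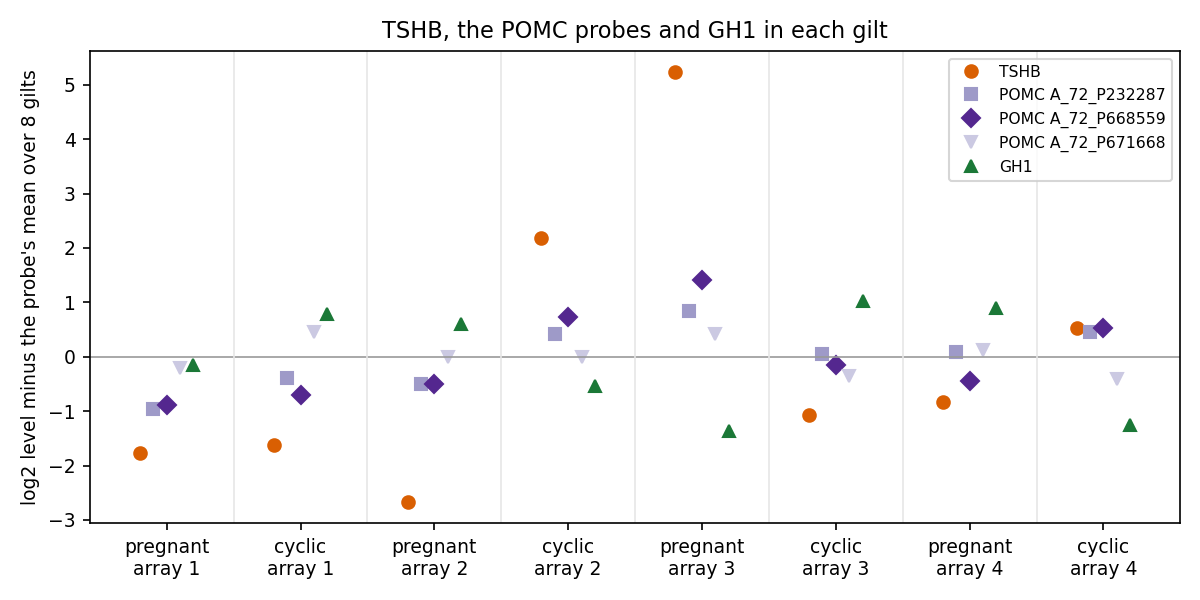
Log2 level of TSHB, the 3 POMC probes and GH1 in each gilt, minus the mean of that probe over the 8 gilts. TSHB and POMC probe A_72_P668559 are highest in the pregnant gilt of array 3, where GH1 is lowest.

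Markers of other pituitary cells were set beside these values. The mean log2 level of the somatotroph markers GH1 and GHRHR was 14.14, 14.27, 13.14 and 14.57 in the pregnant gilts and 14.77, 13.56, 14.76 and 13.22 in the cyclic gilts, lowest in the pregnant gilt with the most TSHB. The 4 somatotroph means in Cy3 were all below the 4 in Cy5. The mean of the gonadotroph markers GNRHR, LHB and NR5A1 ran from 12.16 to 12.99 in pregnant gilts and from 12.02 to 12.69 in cyclic gilts. It was highest in the pregnant gilt with the most TSHB. There the folliculostellate marker CDH1 was 10.39, the endothelial mean 9.34 and the immune mean 8.63, each within the range of the other gilts. The mean of the 2 tested of 4 corticotroph and melanotroph markers (PCSK2 and POMC) ran from 11.92 to 13.09 in pregnant gilts and from 11.93 to 12.73 in cyclic gilts. It joins markers that differed in sign on array 3, with ratios of -1.31 for PCSK2 and 0.78 for the brightest POMC probe. The 2 posterior lobe and neural markers measured on every array, OXT and AQP4 of a list of 7, ran from 10.18 to 11.01 in pregnant gilts and from 10.39 to 10.92 in cyclic gilts, while AVP did not pass the filter. In the pregnant gilt of array 3 these means were 12.46 and 11.01. CHGA was the 1 of 4 genes listed as pars tuberalis cell markers that had a probe. It was 10.53 in that gilt and 10.71 in the cyclic gilt of the same array. Whether CHGA marks the pars tuberalis in these samples was not tested. The part of cell makeup in the TSHB levels was not tested.

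Of TRH and its receptors, TRHR was the 1 gene of 3 with a named probe. Below the receptor, 5 of 26 listed signalling genes were tested, none was called, and the median ratio was -0.02, as over the 1744 tested named genes (-0.02). GNAQ and GNA11, the G protein alpha subunits that TRHR couples to, had ratios of 0.04 ± 0.11 and 0.03 ± 0.31 (SD, n = 4 each). CAMK2G, a calcium-activated kinase, gave -0.02 ± 0.11. MAP2K1, the kinase above ERK, gave -0.53 ± 0.54 and was the 1 gene of this list with an unadjusted p under 0.05, a threshold that 13.8% of the named genes passed.

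Of 25 genes of thyroid hormone feedback 9 were tested and none was called, with 3 positive and 6 negative ratios and a median of -0.08. THRA, a thyroid hormone receptor, gave -0.23 ± 0.38, its partner RXRG 0.16 ± 0.26, and the coactivators NCOA2 and NCOA3 -0.15 ± 0.23 and -0.08 ± 0.11 (SD, n = 4 each). The deiodinases DIO1 and DIO2, which convert thyroid hormones, did not pass the filter on dim probes.

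Of 23 lineage factors 6 were tested and none was called, with a median of -0.03. POU1F1, the factor that thyrotrophs, somatotrophs and lactotrophs need and that acts on the TSHB promoter, had ratios of 0.74, 0.51, 0.37 and 0.21, positive on all 4 arrays, where 25.9% of the probes with 4 ratios kept 1 sign. Its fitted ratio was 0.46 ± 0.23 (SD, n = 4; limma adjusted p = 0.235), and its r with TSHB was -0.23. POU1F1 thus had an even ratio where TSHB swung in both directions. GATA3, MSX1 and SOX9 gave -0.16 ± 0.45 (n = 4), -0.13 ± 0.30 (mean ratio, n = 3; fitted -0.17) and -0.08 ± 0.08 (n = 4).

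Of 16 receptors that restrain or modulate the pituitary 6 were tested and none was called, with a median of 0.07. SSTR5, a somatostatin receptor (somatostatin inhibits thyrotropin release), gave 1.23 ± 0.57 and was the 1 of them with an unadjusted p under 0.05. GNRHR, ESR1 and GHRHR gave 0.43 ± 0.43, 0.13 ± 0.34 and -0.08 ± 0.63 (SD, n = 4 each). In the pars tuberalis list CCK and CHGA gave -0.29 ± 0.26 and -0.07 ± 0.26. The neural, posterior and intermediate lobe markers AQP4, OXT, PCSK2 and MBP gave 0.27 ± 0.52, -0.02 ± 0.19, 0.01 ± 0.94 and -0.34 ± 0.56 (SD, n = 4, but 3 for MBP, where the mean ratio is given; its fitted ratio was -0.20). Over all 40 tested genes of the lists none was called, 3 had an unadjusted p under 0.05 with a positive ratio (TRHR, POU1F1 and SSTR5), and 3 with a negative one (PRL, MAP2K1 and CCK). That share, 6 of 40, lies near the 13.8% of all named genes. Of all tested probes 10.4% had such a p with a positive ratio and 7.62% with a negative one. TRHR was tested through the pregnant gilts alone, and its p includes array 4, where its cyclic reading was not well above background.

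The named genes whose levels ran most like TSHB over the 8 gilts, among 573 with a range of at least 1 log2 unit, were FUT2 (r = 0.88), SLC15A1 (0.87), C6 (0.85), PAQR8 (0.85) and CACNB4 (0.82). FUT2, a fucosyltransferase, had ratios of 1.55, -1.92, 2.43 and -1.12. The levels most opposite to TSHB were those of RBP7 (-0.88), HMGB2 (-0.87), SIPA1L2 (-0.81), TNFSF12 (-0.77) and GH1 (-0.76). Each of the nearest was highest, and each of the most opposite lowest, in the pregnant gilt of array 3. That gilt had a TSHB level of 16.19, against 13.14 for the next, so these r values lean on 1 gilt. After normalisation all of the nearest were, like TSHB, brighter in Cy3 on every array but array 1, and FUT2 and C6 there too. All of the most opposite were then brighter in Cy5 on every array but array 1, and all except RBP7 there too. Whether dye contributed to these likenesses was not tested. For TRHR the nearest were HIF1A (0.90), NMB (0.89), SCD (0.89), FBXO9 (0.88) and NR1H3 (0.87), and the most opposite CD14 and GPNMB (-0.96 each), CDH1 and DOK1 (-0.94 each) and APOA5 (-0.93). These are descriptions, since the gilts of an array share its hybridisation. The 5 genes nearest TRHR were, like TRHR, lowest in the pair of array 4, and 4 of them (HIF1A, SCD, FBXO9 and NR1H3) had their spot in its dim area. Without array 4, over 6 gilts, r with TRHR was 0.76 for HIF1A, 0.70 for NMB, 0.81 for SCD, 0.76 for FBXO9 and 0.70 for NR1H3. The 5 most opposite to TRHR were highest in the pair of array 4, and none had its spot in the dim area. Over the same 6 gilts their r was -0.93 for CD14, -0.91 for GPNMB, -0.81 for CDH1, -0.80 for DOK1 and -0.82 for APOA5.

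**Figure D5:**
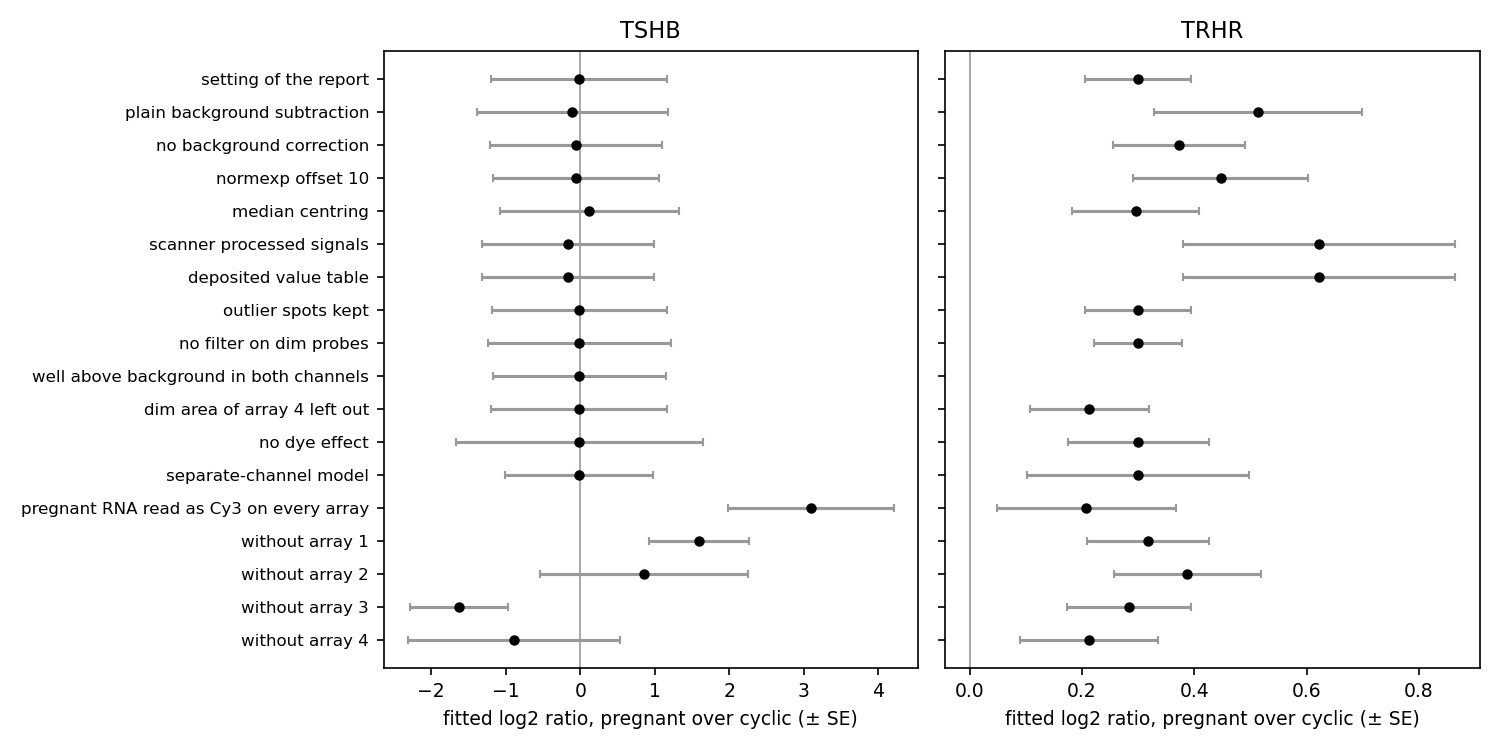
Fitted log2 ratio of pregnant over cyclic for TSHB and TRHR under the main processing and each alternative; TRHR has no value under the filter in both channels, which it does not pass. The TSHB ratio lies on both sides of 0, from -1.63 to 3.09, and the TRHR ratio stays positive, from 0.21 to 0.62.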

How the data were processed

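The authors deposited 1 scanner file per array which, per the file headers, holds spot and background intensity in Cy3 and Cy5 with flags, processed signals and a log10 ratio, from Agilent Feature Extraction 10.7.3.1. The authors deposited a value table too, of log2 ratios turned by the sample labels. All 4 arrays of design 026440 lay on 1 slide and were read in 1 scan; 825 ng of cRNA per dye was hybridised.

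The files hold median signals, used where means had been planned. Background was corrected by normexp (offset 50), ratios were normalised by loess with control spots at weight 0, outlier-flagged spots were dropped, and channel levels were scaled by Aquantile. Tested were 21627 probes well above background on all arrays in at least 1 state, with at least 3 unflagged spots. limma 3.58.1 in R 4.3.3 fitted state and dye, with Benjamini-Hochberg adjustment; the procedure was tested on simulated data. Array pairs gilts, and nothing else does. Intervals reflect 4 arrays. The labels count 8 individuals.

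The dim area of array 4 was defined from 10 by 5 spot tiles whose bright spots shifted by -1 log2 unit or lower. Gene names came from RefSeq accessions matched to NCBI's pig table (assembly Sscrofa11.1); positions were not used. The members and 9 lists were chosen with earlier results of these data known. Named are all genes of the hormone lists, POU1F1, the 4 genes of smallest p in each other list and the 5 most and least alike in level; a gene is represented by its brightest probe.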

Additional observations from a re-analysis of the deposited data

How the results depend on the processing

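Of 17 alternatives, the ratio of TSHB changed sign with median centring (0.12), with pregnant RNA read as Cy3 (3.09) and without single arrays (-1.63 to 1.60), and its adjusted p was 0.177 or more in all. The TRHR ratio was positive in all 16 alternatives that gave one, 0.21 to 0.62, with an adjusted p of 0.116 or more. It was not tested with the filter in both channels. With the dim area left out and without array 4 it was 0.21, and the other alternatives kept the dim TRHR spot of array 4. Called probes, 0 in the main processing, were 1 with no background correction, 1 with a normexp offset of 10, 2 with no dye effect, 1046 in the separate-channel model and 0 to 3381 without single arrays, the most without array 1. In that model the estimate of the correlation between channels stopped at its limit of iterations at least once. Of the listed genes 4 were called in the separate-channel model (PRL, SSTR5, POU1F1 and MAP2K1), and 0 to 3 without single arrays (PRL, SSTR5 and GNRHR without array 1). The cause was not tested. Median centring put 82.2% of 2555 probes with an unadjusted p under 0.05 higher in pregnant gilts, against 57.8% in the main processing.

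Other ratios that changed sign were, with pregnant RNA read as Cy3, FSHB 0.56, POMC -0.11, SSTR5 -0.26, ESR1 -0.067, MBP 0.50, PCSK2 -0.35, CCK 0.21, GNAQ -0.023, GNA11 -0.21, RXRG -0.17, GATA3 0.36, MSX1 0.060 and SOX9 0.012. With median centring they were GH1 0.21, GHRHR 0.052, OXT 0.14, CHGA 0.030 and CAMK2G 0.086. With the scanner's processed signals and with the deposited table they were GH1 0.0073, GNAQ -0.060 and GNA11 -0.011. GH1 with plain subtraction gave 0.010 and SOX9 with no background correction 0.00701. Without single arrays the ranges were GH1 -0.37 to 0.36, POMC -0.20 to 0.52, ESR1 -0.065 to 0.33, GHRHR -0.21 to 0.051, OXT -0.11 to 0.063, PCSK2 -0.47 to 0.50, CHGA -0.23 to 0.079, GNAQ -0.0083 to 0.089, GNA11 -0.079 to 0.14 and CAMK2G -0.061 to 0.021. CGA kept its sign, from -0.50 to -0.026 without single arrays and -0.034 with median centring.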

Other observations

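The split of TSHB between arrays 2 and 3, lower in the pregnant gilt of array 2 and higher in that of array 3, was rare among the tested probes. By the sample labels the pregnant gilt was in Cy5 on array 2 and in Cy3 on array 3. In the normalised ratios the split was thus also a brighter Cy3 than Cy5 on both arrays, and the opposite split a brighter Cy5. With a limit of 1 log2 unit, chosen after the values were seen, 13 of 21063 probes had it, 8 had the opposite split and 65 passed the limit on both arrays with 1 sign. The named genes among the 13 were TSHB, FUT2, C6 (a complement component), POMC through probe A_72_P668559, and UCP3 (a mitochondrial uncoupling protein). UCP3 had ratios of -1.21, 1.44 and -2.69 on arrays 2, 3 and 4, with no value on array 1, where its spot carried an outlier flag. C6 had ratios of 0.35, -1.28, 1.71 and -1.48 on arrays 1 to 4. After normalisation FUT2, C6 and UCP3 were brighter in Cy3 on every array where they had a value. TSHB and the POMC probe were so on all but array 1. Whether dye contributed to this split was not tested.

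The unnamed transcript TC423681 came closest to TSHB in size, with ratios of 0.13, -4.09, 3.70 and -3.75. Its level was 12.11, 7.47, 11.55 and 8.63 in the pregnant gilts and 11.98, 11.56, 7.84 and 12.37 in the cyclic gilts of arrays 1 to 4. Unlike TSHB it was high in both gilts of array 1. The unnamed transcript EW387344 had ratios of 0.12, -2.45, 2.31 and -0.61. TC423681 and EW387344 were both brighter in Cy3 than in Cy5 on every array after normalisation.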
